A study of Homo sapiens with 6 samples.

Results

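Anoctamins, also known as the TMEM16 family, are membrane proteins that respond to calcium. ANO1 and ANO2 are calcium-activated chloride channels, ANO6 is a calcium-activated scramblase that carries phospholipids such as phosphatidylserine across the plasma membrane, and several other members also move lipids. ANO8 sits in the endoplasmic reticulum and is known for holding that organelle close to the plasma membrane, where calcium stores are refilled. The members described here are the 10 rows of the deposited expression matrix whose symbols are ANO1 to ANO10, of 17039 genes in all.

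Poly(A) RNA of 2 human breast cancer cell lines was sequenced, with 3 libraries per line. MDA-MB-231 is a triple-negative, mesenchymal-like line that was bought from ATCC and grown without a selection drug. MDA-MB-231-BR, which the labels write without the MDA-MB prefix, is its brain-seeking variant. It was a gift from another laboratory and was kept in medium with the antibiotic G418. The drug, the source of the cells and the line cannot be told apart. MDA-MB-231-BR was selected for growth in mouse brain, and both lines were sampled as cultures, with no brain tissue. The libraries were grouped by their titles, since a label field for the cell line counts upward from library to library. The series calls the samples independent, but no source says whether they came from separate cultures, so the p-values measure the spread between these libraries, which may be technical.

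Values are FPKM, the number of sequenced fragments of a gene scaled by its length in kilobases and by the size of the library. The depth per library is unknown because no counts were used. Within a line the libraries had correlations of log2 values of at least 0.997, against at most 0.902 between lines. The 6 marker genes expected in such a line were all expressed, at a summed 3737 to 3783 FPKM in MDA-MB-231-BR and 3532 to 3626 FPKM in MDA-MB-231. Of 5 receptor and epithelial genes that such a line lacks or holds low, ESR1, PGR and CDH1 stayed near or below 1 FPKM, while ERBB2 (9.88 against 4.95 FPKM) and EPCAM (8.70 against 5.06 FPKM) were above 1 and higher in MDA-MB-231-BR, and the list summed to 19.3 to 19.9 FPKM against 10.3 to 11.2 FPKM. Of 18 measured markers of 5 brain, blood and vessel cell types, 15 were under 1 FPKM in every library, GFAP, AQP4, MOG and PTPRC among them. The exceptions were higher in MDA-MB-231-BR: MBP (21.0 against 13.6 FPKM), SYT1 (6.35 against 0.38) and SLC1A3 (3.82 against 0.897). The part of these genes and of ERBB2 and EPCAM in the results was not tested. In bulk RNA, fewer cells with a transcript and less of it per cell cannot be told apart.

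Genes with a mean of at least 0.1 FPKM over the 6 libraries were compared with limma on log2(FPKM + 0.1). Fold changes are therefore on that scale, are given as MDA-MB-231-BR against MDA-MB-231, and understate the change of low genes. An adjusted p (Benjamini-Hochberg, over all genes tested) below 0.05 is called a difference. The study's stricter criteria for a differentially expressed gene (DEG) were also applied. They ask for an absolute log2 fold change above 1, the same adjusted p and, as read here, a mean of at least 1 FPKM in both lines. The study applied its criteria to results of DESeq2, another test, so its DEGs can differ from those given here.

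Among the anoctamins ANO8, ANO10 and ANO2 were higher in MDA-MB-231-BR, and ANO6 and ANO5 were lower. ANO8 rose 2.63-fold by mean FPKM, ANO10 rose 1.38-fold, ANO6 was 1.99-fold and ANO5 2.40-fold higher in MDA-MB-231, and ANO2 was listed at 0 in each MDA-MB-231 library. Of the 10 genes 6 could be tested, and 5 of these differed, 3 of them higher and 2 lower. ANO2 was among them, and it passed the filter on low values only through MDA-MB-231-BR. Across the 13465 genes tested 77.3% differed, 44.4% higher and 32.9% lower, so the share of the anoctamins is near that of all genes. Past an absolute log2 fold change of 1 there were 3 anoctamins, ANO2 and ANO8 higher and ANO5 lower, beside 15.2% of all genes (10.9% higher and 4.34% lower). That count depends on the number added before taking logs. With 1 added, ANO2 stayed past 1 (1.18), but ANO8 (0.97) and ANO5 (-0.52) did not. ANO8 alone met the DEG criteria, which 6.45% of all genes did (4.68% higher and 1.77% lower). The median log2 fold change was 0.10 over the 6 tested anoctamins and 0.08 over all genes tested. With median-of-ratios scaling the median of all genes was 0.00 and with quantile normalization it was -0.06, and the 5 called anoctamins kept their direction under both.

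**Figure D1:**
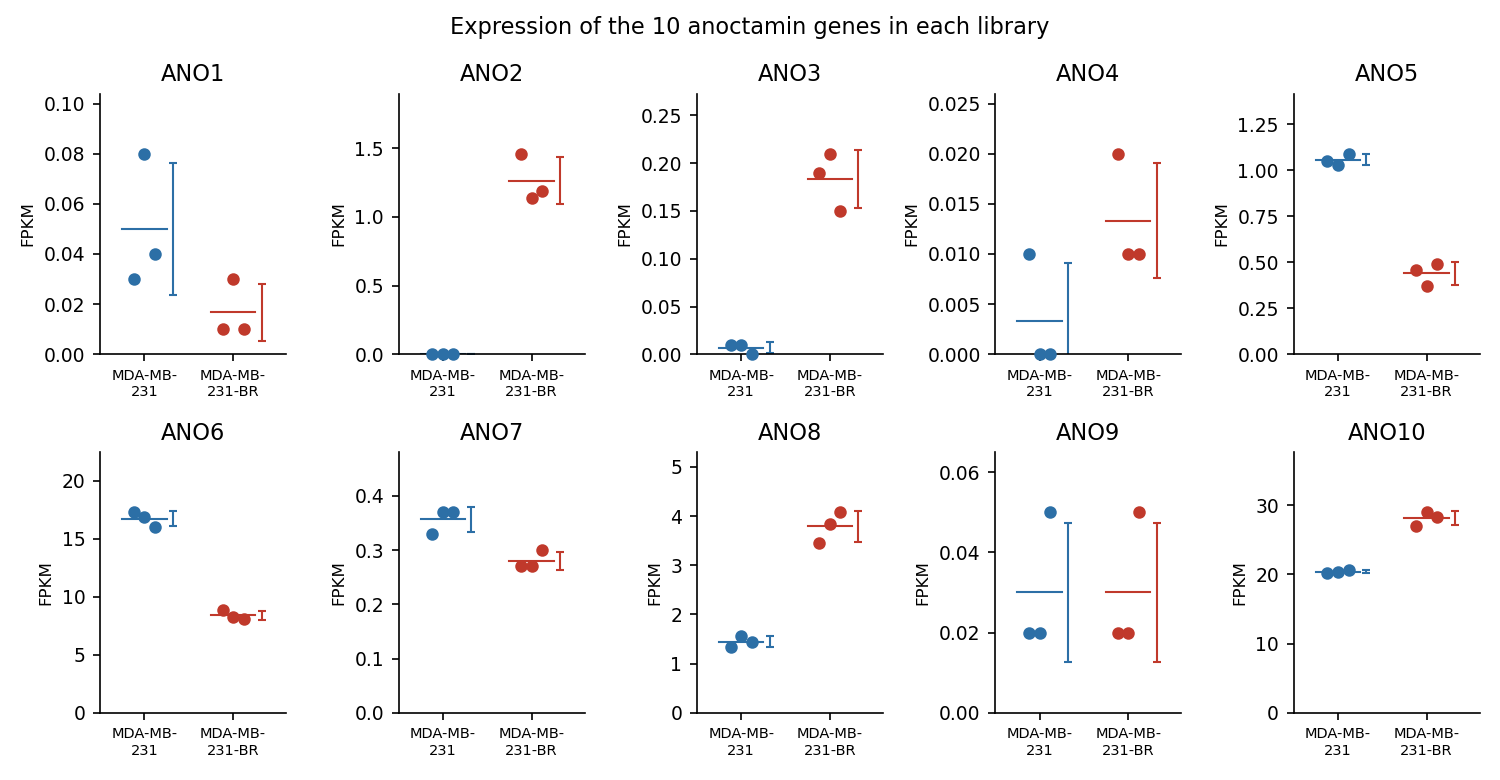
FPKM (vertical axes, each starting at 0 and scaled to its gene) of the 10 anoctamin genes, with 1 point per library, a line at the mean and a bar of ± 1 SD (n = 3). MDA-MB-231 libraries are blue and MDA-MB-231-BR libraries red. In ANO8 the MDA-MB-231-BR points, from 3.45 to 4.08 FPKM, lie above the MDA-MB-231 points, from 1.33 to 1.56 FPKM, while in ANO6 the order is turned around.

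**Figure D2:**
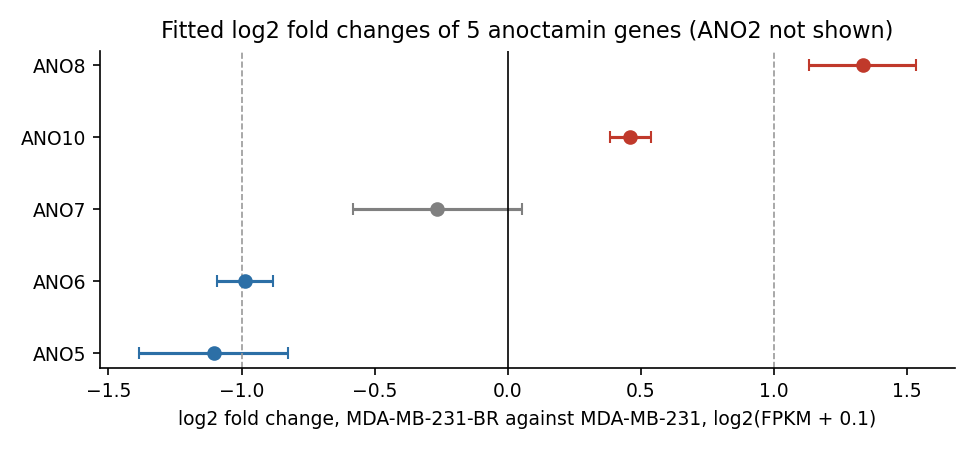
Fitted log2 fold change (horizontal axis, MDA-MB-231-BR against MDA-MB-231, log2(FPKM + 0.1)) of 5 tested anoctamins with 95% confidence intervals from limma. Red is higher, blue lower and grey not past the adjusted p of 0.05, and dashed lines mark a log2 fold change of 1 and -1. The interval of ANO8 lies wholly beyond 1, those of ANO6 and ANO5 cross -1, and ANO2 is left out because its value depends on the number added before taking logs.

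ANO8 (gene ID 57719) lies at chr19:17323223-17334829 on the minus strand of GRCh38, in GENCODE 29. Its coding sequence, spread over 18 exons of the main transcript, runs to 3696 bases, the longest of the family, in a gene of 11607 bases, the shortest of the 10. The study picked ANO8 as a hub of a protein interaction network built from its DEGs of these data. It linked high ANO8 expression to worse metastasis-free survival in patients, and a candidate set that holds ANO8 to brain metastasis-free survival. The study measured ANO8 with a primer pair and reported it higher in MDA-MB-231-BR. It also lowered ANO8 with a pool of short hairpin RNAs (shRNAs), and ANO8 was not among the genes whose knockdown it reported to inhibit migration. The stretches of the transcript that these reagents read are shown here. Each was matched to the annotated transcripts, all lie in coding sequence, and capitals mark the bases beyond an exon junction.

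forward primer: ttcccagACACGACCGATGA

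reverse primer: tacgtggcggtgacaaagaag

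shRNA target 1: cgtctgtgtcttcttgctcat

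shRNA target 2: gctgttcctagaggaatggaa

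shRNA target 3: cctctagATGACATCTGTGAT

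The forward primer spans the junction of exons 2 and 3 (chr19:17333542-17333696), and the reverse primer, printed as its own strand reads, lies in exon 3 (chr19:17333428-17333448). shRNA target 1 is in exon 9 (chr19:17330374-17330394) and target 2 in exon 8 (chr19:17330913-17330933). Target 3 spans the junction of exons 6 and 7 (chr19:17331202-17331301). The 3 shRNA targets and the forward primer are in 3 of the 4 annotated ANO8 transcripts, and the reverse primer is in all 4. No other gene's transcript held any of the 5 sequences exactly. The nearest stretch in another anoctamin differed from target 1 by 5 bases, in ANO7, and from target 2 by 5 bases, in ANO7 and ANO9. Target 3 and both primers differed from the nearest by 6 bases. The FPKM of ANO8 is a gene total and does not separate the 4 transcripts.

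ANO8 was measured at 3.45, 3.84 and 4.08 FPKM in MDA-MB-231-BR and at 1.33, 1.56 and 1.44 FPKM in MDA-MB-231. Every MDA-MB-231-BR library was above every MDA-MB-231 library. The means were 3.79 ± 0.318 and 1.44 ± 0.115 FPKM (SD, n = 3), and the log2 fold change was 1.33 (SE 0.0895, 95% interval 1.13 to 1.53, adjusted p = 3.3e-07). Of all genes tested, 7.19% had a higher log2 fold change. With 1 added before taking logs the log2 fold change was 0.97, below the DEG criterion of 1. It was 1.25 under median-of-ratios scaling and 1.01 (SE 0.0897) under quantile normalization, barely past that criterion. DDA1, an opposite-strand gene, overlaps the end of ANO8 by 79 of 4979 exonic bases and was itself higher in MDA-MB-231-BR (log2 fold change 1.04). No source says that strand was used in counting, so reads from those bases cannot be told apart.

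ANO10, widely expressed and mutated in an inherited ataxia, was the most abundant anoctamin in both lines. It lies at chr3:43354859-43691594 on the minus strand. Its values were 26.96, 28.97 and 28.3 FPKM in MDA-MB-231-BR and 20.19, 20.35 and 20.56 FPKM in MDA-MB-231, and the lines did not overlap. The means were 28.1 ± 1.02 and 20.4 ± 0.186 FPKM, with a log2 fold change of 0.46 (SE 0.0340, 95% interval 0.38 to 0.54, adjusted p = 6.7e-07). ABHD5, on the opposite strand, shares 170 of the 5287 exonic bases of ANO10 and was higher in MDA-MB-231-BR as well (log2 fold change 0.69).

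ANO6, the scramblase whose loss causes the bleeding disorder Scott syndrome, came next in abundance in both lines and moved the other way. It lies at chr12:45215987-45440404 on the plus strand. The MDA-MB-231-BR libraries had 8.83, 8.26 and 8.09 FPKM and the MDA-MB-231 libraries 17.28, 16.87 and 16.0 FPKM, with no overlap. The means were 8.39 ± 0.388 and 16.7 ± 0.654 FPKM and the log2 fold change was -0.99 (SE 0.0471, 95% interval -1.09 to -0.88, adjusted p = 2.8e-08). ANO6 thus fell just short of the DEG criterion of 1. It passed under median-of-ratios scaling (-1.07), under quantile normalization (-1.10) and without MDA-MB-231-BR replicate 1 (-1.02), and it also passed without MDA-MB-231 replicate 3.

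ANO5, whose mutations cause muscular dystrophy and a bone disorder, lies at chr11:21799934-22283357 on the plus strand. It was measured at 0.46, 0.37 and 0.49 FPKM in MDA-MB-231-BR and at 1.05, 1.03 and 1.09 FPKM in MDA-MB-231, again without overlap. The means were 0.440 ± 0.0625 and 1.06 ± 0.0306 FPKM and the log2 fold change was -1.11 (SE 0.124, 95% interval -1.38 to -0.83, adjusted p = 1.7e-05). Its mean was below 1 FPKM in MDA-MB-231-BR, so the DEG criteria could not be met. With 1 added before taking logs its log2 fold change was -0.52.

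ANO2, a chloride channel best known from smell receptor neurons, lies at chr12:5531869-5946232 on the minus strand. The MDA-MB-231-BR libraries had 1.46, 1.14 and 1.19 FPKM, and the MDA-MB-231 libraries were all listed at 0. No fold change is given against a group at 0, since the fitted log2 difference was 3.76 with 0.1 added, 1.18 with 1 added and 6.98 with 0.01 added. The limma adjusted p was 1.1e-08, and it stayed at or below 1.5e-06 under the 13 alternatives in which ANO2 was tested. ANO2 passed the filter on low values only through MDA-MB-231-BR, so these p-values restate that contrast and are not separate support. ANO2 was not a DEG, because its mean in MDA-MB-231 was below 1 FPKM.

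ANO7, a gene known from prostate epithelium, had 0.27, 0.27 and 0.30 FPKM in MDA-MB-231-BR and 0.33, 0.37 and 0.37 FPKM in MDA-MB-231. The 3 MDA-MB-231 libraries lay above the others, yet the difference did not pass (log2 fold change -0.26, SE 0.141, 95% interval -0.58 to 0.05, adjusted p = 0.11). It passed without the filter on low values (adjusted p = 0.038), under quantile normalization (-0.64, adjusted p = 0.0021) and without limma's trend of variance with level (adjusted p = 0.0053). Complete separation of the 3 libraries of each line was seen in 6 of the 6 tested anoctamins, and in 78.4% of all genes tested.

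The other 4 members had means below 0.1 FPKM and were not tested. ANO3, mutated in an inherited dystonia, came closest, with a mean of 0.095 FPKM over the 6 libraries. Its values were 0.19, 0.21 and 0.15 FPKM in MDA-MB-231-BR and 0.01, 0.01 and 0 FPKM in MDA-MB-231, without overlap. With no filter on low values its log2 difference was 1.41 (limma adjusted p = 5.4e-05). Leaving out any MDA-MB-231 library brought it over the filter, with log2 differences from 1.36 to 1.43. Dropping a library near 0 raises the mean, so ANO3 then passed only through MDA-MB-231-BR, and this is not support for a difference. MUC15, a membrane mucin on the opposite strand, lies within ANO3 and shares 175 of its 7700 exonic bases. MUC15 had 4.46, 4.14 and 4.68 FPKM in MDA-MB-231-BR and was listed at 0 in all MDA-MB-231 libraries, and without stated strand the shared reads cannot be told apart.

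ANO1, the chloride channel of secretory epithelia and gut pacemaker cells, was close to 0 in both lines. It had 0.01, 0.03 and 0.01 FPKM in MDA-MB-231-BR and 0.03, 0.08 and 0.04 FPKM in MDA-MB-231, and the lines overlapped at 0.03 FPKM. ANO4 was at most 0.02 FPKM in any library. ANO9 had 0.02, 0.02 and 0.05 FPKM in both lines. At these levels no difference could be read from ANO1, ANO4 or ANO9.

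FPKM is a level per length, so the genes can be ordered within a library. In both lines ANO10 came first, followed by ANO6 and then by ANO8, and none of these neighbours overlapped. In MDA-MB-231-BR, ANO2, ANO5, ANO7 and ANO3 followed, each below the last in all libraries, and ANO9, ANO1 and ANO4 came last with overlapping values. In MDA-MB-231, ANO5 and ANO7 followed ANO8. Behind them ANO1 overlapped ANO9, ANO3 overlapped ANO4, and ANO4 overlapped ANO2.

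The 10 genes summed to 41.67, 43.12 and 42.67 FPKM in MDA-MB-231-BR and to 40.25, 40.29 and 39.55 FPKM in MDA-MB-231. The sum was higher in MDA-MB-231-BR by 2.46 FPKM (exact permutation test, two-sided, p = 0.1, the smallest that 3 against 3 libraries can give). After median-of-ratios scaling the sums overlapped, at 41.2 ± 0.721 and 41.1 ± 0.396 FPKM (exact permutation p = 0.9). The make-up of the sum, which scaling does not touch, differed more. ANO10 made up 64.7%, 67.2% and 66.3% of it in MDA-MB-231-BR and 50.2%, 50.5% and 52.0% in MDA-MB-231. The share of ANO6 was 19.8% ± 1.24 in MDA-MB-231-BR and 41.8% ± 1.24 in MDA-MB-231, and that of ANO8 was 8.92% ± 0.641 and 3.61% ± 0.285. The ratio of ANO10 to ANO6 was 3.05, 3.51 and 3.50 in MDA-MB-231-BR and 1.17, 1.21 and 1.29 in MDA-MB-231. None of these shares or ratios overlapped between the lines, and each had the smallest exact permutation p of 0.1.

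**Figure D3:**
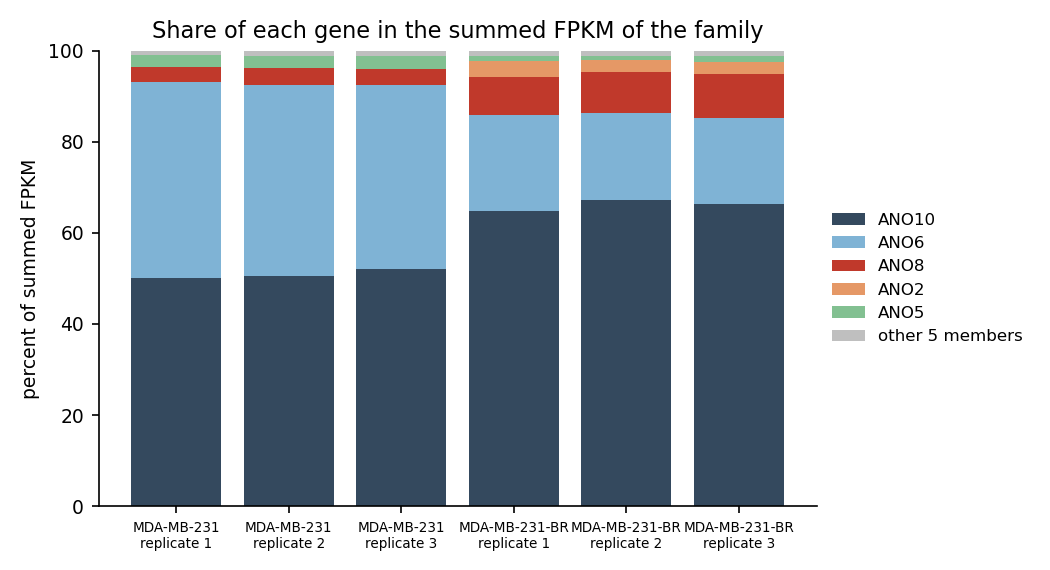
Share of each gene in the summed FPKM of the 10 anoctamins (vertical axis, percent), with 1 bar per library and 1 colour per gene. The ANO6 segment takes 40.5% to 42.9% of the MDA-MB-231 bars and at most 21.2% of the MDA-MB-231-BR bars, while the ANO8 segment is wider in each MDA-MB-231-BR bar.

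The genes around ANO8 were also higher in MDA-MB-231-BR. Among the 5 tested genes on each side, within 0.239 Mb, all 10 were higher and 4 of them were DEGs, beside 44.4% and 4.68% of all genes tested. The median of their fitted log2 differences was 1.21. ABHD8 had 9.28 FPKM in MDA-MB-231-BR and 2.31 FPKM in MDA-MB-231 (log2 fold change 1.96), GTPBP3, an enzyme of mitochondrial tRNA modification, 21.4 and 7.62 FPKM (1.48), and SLC27A1, a fatty acid transporter, 3.59 and 1.33 FPKM (1.38). BST2, an antiviral membrane protein, had 12.3 and 0.0533 FPKM, and PLVAP, a gene of endothelial cells, averaged 0.240 FPKM over the MDA-MB-231-BR libraries and was listed at 0 in the others. BABAM1 (0.53), MRPL34 (0.97) and MVB12A (0.92) were higher too. The smallest was ANKLE1 (log2 fold change 0.51), which was not called without MDA-MB-231-BR replicate 1, without MDA-MB-231 replicate 1 or under quantile normalization. Over 20 genes on each side, 36 of 40 were higher, 17 of them DEGs, and 1 was lower, against the same 44.4%, 4.68% and 32.9% of all genes. The median was 1.05, and 14 of the 40 had a larger log2 difference than ANO8. ANO8 stood 0.28 above that median. The part of the neighbourhood in the value of ANO8 was not tested.

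**Figure D4:**
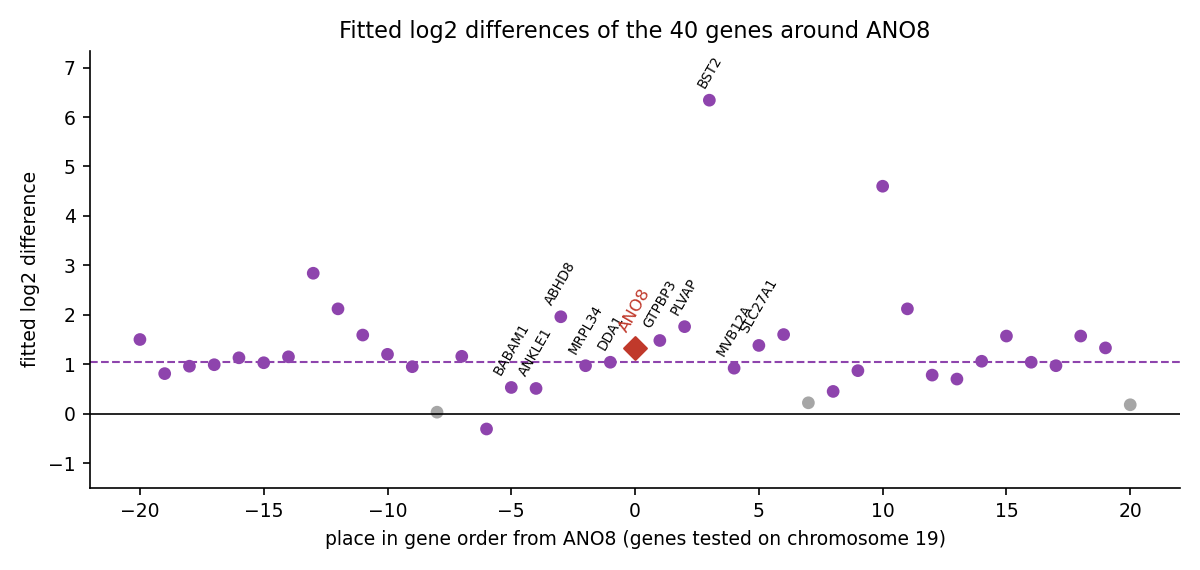
Fitted log2 difference (vertical axis, MDA-MB-231-BR against MDA-MB-231) of the 20 tested genes on each side of ANO8 by their place in gene order (horizontal axis). Purple points had an adjusted p below 0.05, grey points did not, the red diamond is ANO8 and the dashed line is the median of the 40 genes, at 1.05. Nearly all points lie above 0, and BST2 is the highest of the named neighbours.

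The other anoctamins that differed stood further from the median of their 40 neighbours than ANO8 did, though ANO10 only slightly. Their surroundings are not alike in size. The 10 nearest tested genes spanned 0.24 Mb around ANO8, but from 1.8 Mb (ANO10) to 7.5 Mb (ANO5) around the others. The median of the 40 genes around ANO2 was -0.07, and 1 of these lay above ANO2. Around ANO5 the median was 0.03 and 37 of 40 lay above ANO5, and around ANO6 it was -0.14 and 38 of 40 lay above ANO6. ANO10, at 0.46, stood 0.34 above its neighbours' median of 0.12, with 9 of 40 higher. Among the members not tested, ANO4 also had mostly raised neighbours, 33 of 40 higher and 5 lower, with a median of 0.45. Around ANO3 the median was 0.80 for the 10 nearest genes and 0.09 for the 40. The medians of the wider surroundings were -0.08 for ANO1 and -0.15 for ANO9. These places and medians are descriptions and carry no test.

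Other genes that share a biochemical role with the anoctamins were read from lists. Of 11 tested lipid scramblases outside the family, 8 were higher, 1 lower and 2 not called, with a median log2 fold change of 0.17. Over all genes tested 44.4% were higher and 32.9% lower, with a median of 0.08. XK, the partner of a lipid transporter on red cells, had 9.56 ± 0.0681 FPKM in MDA-MB-231-BR and 1.43 ± 0.0971 in MDA-MB-231 (log2 fold change 2.66, adjusted p = 2.6e-10). PLSCR4 rose from 1.22 to 4.94 FPKM (1.93) and XKR9 from 3.74 to 7.21 FPKM (0.93), while ATG9A, the scramblase of autophagy, fell from 16.0 to 13.6 FPKM (-0.23). XK and PLSCR4 were DEGs, beside 4.68% of all genes tested that were higher DEGs and 1.77% that were lower ones.

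Lipid flippases, the pumps that carry phospholipids back to the inner leaflet, and their subunits were called in 12 of 14 tested cases. Of the 14 genes, 8 were higher and 4 lower, beside 44.4% and 32.9% of all genes tested. Their median was 0.41. ATP8B2 rose from 3.14 to 8.55 FPKM (1.42) and ATP8B1, mutated in an inherited liver disease, from 3.41 to 7.94 FPKM (1.20). ATP8A1 rose from 0.593 to 1.67 FPKM (1.36). ATP10A had 2.11, 1.95 and 2.25 FPKM in MDA-MB-231-BR and 0.01, 0 and 0 FPKM in MDA-MB-231. ATP8B3 (-1.01), ATP9B (-0.86) and ATP11A (-0.78) fell.

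Genes listed as chloride channels or transporters and their partners, outside the family, were called in 22 of 23 tested cases. Of the 23 genes, 16 were higher and 6 lower, beside 44.4% and 32.9% of all genes tested. Their median was 0.39, and none was a DEG, beside 6.45% of all genes. CLIC3 had 1.48 FPKM in MDA-MB-231-BR and 0.163 FPKM in MDA-MB-231 (2.67). The volume-regulated channel subunit LRRC8E (0.92) and the endosomal CLCN6 (0.91) also rose. CLIC1, by far the most abundant of those named, fell from 833 to 502 FPKM (-0.73), and OSTM1, the partner of a lysosomal chloride transporter, fell from 12.4 to 8.17 FPKM (-0.59). The endosomal transporter CLCN5 fell from 1.34 to 0.890 FPKM (-0.54).

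Of 36 tested genes of contacts between endoplasmic reticulum and plasma membrane and of store-operated calcium entry, the setting in which ANO8 is known, 14 were higher, 15 lower and 7 not called, with a median of 0.01. Among all genes tested, 44.4% were higher and 32.9% lower. The lipid transfer gene GRAMD1B (5.01 against 0.337 FPKM, 3.55) rose, as did GRAMD2B (7.01 against 2.53 FPKM, 1.44) and ITPR1, a calcium release channel (3.14 against 1.26 FPKM, 1.25). GRAMD1A (5.58 against 13.2 FPKM, -1.22) and PITPNM1 (9.21 against 19.3 FPKM, -1.06) fell, as did OSBPL5, a lipid transfer gene (0.920 against 1.68 FPKM, -0.80). STIM1, the calcium sensor of the endoplasmic reticulum, had 5.42, 5.71 and 5.74 FPKM in MDA-MB-231-BR and 8.25, 8.29 and 8.51 FPKM in MDA-MB-231 (-0.56, adjusted p = 1.6e-06). ORAI1, the channel that STIM1 opens, had 37.4 ± 0.853 and 30.8 ± 2.11 FPKM (0.28, adjusted p = 0.00025). These 4 lists were called in 80.6% to 95.7% of tested genes, against the 77.3% of all genes.

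**Figure D5:**
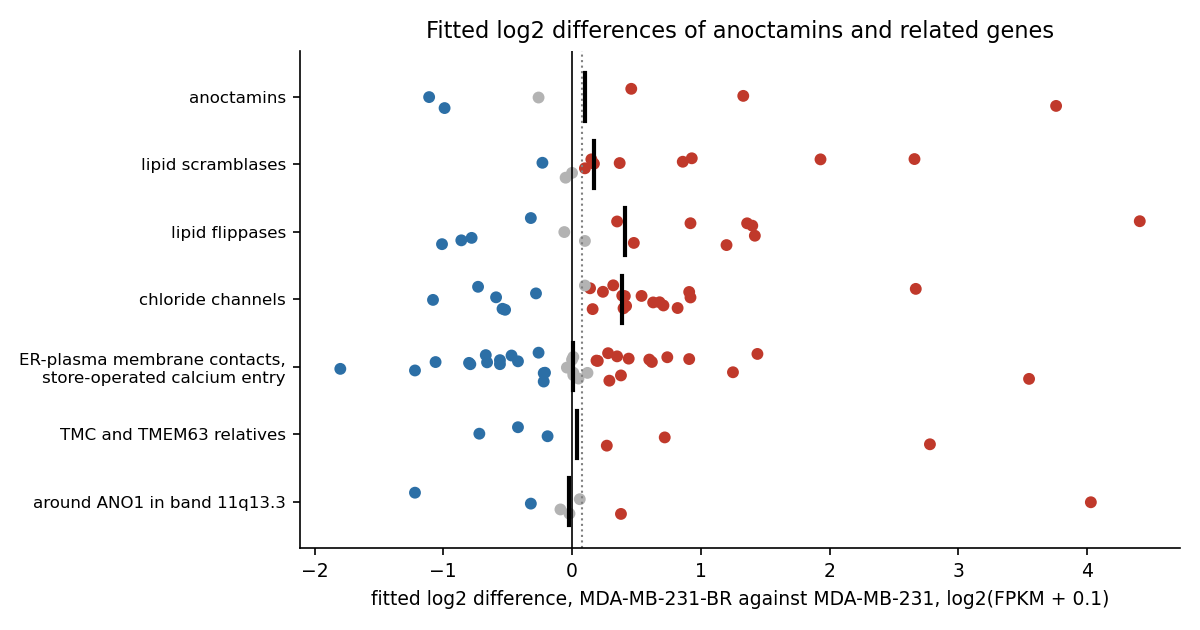
Fitted log2 difference (horizontal axis, MDA-MB-231-BR against MDA-MB-231, log2(FPKM + 0.1)) of each tested gene in the anoctamin family and 6 related lists, with 1 point per gene. Red is higher and blue lower at an adjusted p below 0.05, grey is not called, black bars are list medians and the dotted line is the median of all genes. The medians run from -0.02 for the genes around ANO1 to 0.41 for the flippases.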

How the data were processed

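RNA of 6 cultured libraries was sequenced by the authors. Per the methods and the labels, reads were filtered with SOAPnuke and aligned with HISAT2 (2.0.4) to the genome and Bowtie2 (2.2.5) to transcripts of GRCh38.p12, and the authors deposited FPKM per gene. Whether strand was used in counting is not given in the sources used here. The 6 sample tables and the series matrix held the same values, and 25 symbols turned into dates were repaired. FPKM is not a count, so log2(FPKM + 0.1) was compared with limma (3.58.1, R 4.3.3), with empirical Bayes and a trend, over 13465 genes, 3 libraries against 3, with Benjamini-Hochberg adjustment. The script was tested on simulated data.

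Genes were placed by GENCODE 29. 1 gene of the planned marker lists was left out of the marker counts and is not reported here. Named were all anoctamins, the 5 genes on each side of ANO8, the 3 highest and 3 lowest called genes of each related list with a mean of at least 1 FPKM in a line and each DEG of it, STIM1, ORAI1, the listed genes near ANO1 and the 3 genes most like ANO8. The members and lists were chosen with earlier results of these data known. Shares and sums were compared with exact permutation tests. Other pseudocounts, filters, scalings and criteria, a replicate block and leaving out each library were tried.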

Additional observations from a re-analysis of the deposited data

How the results depend on the processing

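ANO2, ANO5, ANO6, ANO8 and ANO10 kept their direction and an adjusted p below 0.05 under every alternative in which they were tested. For ANO2, listed at 0 in each MDA-MB-231 library, this adds little. ANO8 ranged from 0.97 (pseudocount of 1) to 1.40 (without MDA-MB-231-BR replicate 1), and ANO7 was called under 3 alternatives. The number of anoctamins that met the DEG criteria was 1, and it was 0 with a pseudocount of 1 or a log2 threshold of 1.5, 2 under median-of-ratios scaling or quantile normalization, and 3 with a mean of at least 1 FPKM asked of either line. Leaving out 1 library gave 1 to 2, with ANO6 added without MDA-MB-231-BR replicate 1 and without MDA-MB-231 replicate 3. With a filter at a mean of 1 FPKM, 1 anoctamin was called lower, since ANO5 was then not tested. Leaving out any MDA-MB-231 library gave 4 anoctamins called higher, since ANO3 then passed the filter, only through its MDA-MB-231-BR values.

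Among all genes 630 DEGs were higher and 238 lower. Quantile normalization gave 384 lower, asking 1 FPKM of either line gave 1086 and 390, and a threshold of 1.5 gave 236 and 89. The share of DEGs that were higher was 72.6%, 63.4% with median-of-ratios scaling and 53.3% with quantile normalization. The related lists held 6 higher and 3 lower DEGs, where 4.68% and 1.77% of all genes tested were higher and lower DEGs. They held 12 higher when either line could reach 1 FPKM, and 2 higher and 0 lower at a threshold of 1.5. FADD turned to -0.02 under median-of-ratios scaling, TMC7 to -0.11 under quantile normalization and PPFIA1 to 0.01 without MDA-MB-231 replicate 1. Where no value is given for it, the cause was not tested.

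The labels number the replicates alike in both lines. Deviations of same-numbered libraries had correlations of 0.087, -0.04 and -0.106, within the -0.154 to 0.183 of differently numbered libraries. No pairing by number was seen, but such correlations cannot show that there was none. With a replicate block, 10502 genes were called against 10406, the calls of the anoctamins did not change, and ANO8 stayed at 1.33. Depth is unknown, which limits ANO1, ANO3, ANO4 and ANO9 most.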

Other observations

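The TMC and TMEM63 genes, distant relatives of the anoctamins that include channels opened by mechanical force, were called in 6 of 6 tested cases, 3 higher and 3 lower, against 77.3% of all genes tested. TMC5 had 1.21, 1.05 and 1.30 FPKM in MDA-MB-231-BR and 0.10, 0.08 and 0.08 FPKM in MDA-MB-231 (log2 fold change 2.78, limma adjusted p = 4.7e-08). TMEM63A fell from 11.2 to 6.78 FPKM (-0.72), TMC6 from 11.4 to 8.53 FPKM (-0.42) and TMEM63B from 10.7 to 9.36 FPKM (-0.19). TMC7 had 2.02 FPKM in MDA-MB-231-BR and 1.66 FPKM in MDA-MB-231 (0.27, adjusted p = 0.019), but it was not called under median-of-ratios scaling (0.19, adjusted p = 0.073) or without MDA-MB-231-BR replicate 3, MDA-MB-231 replicate 2 or MDA-MB-231 replicate 3 (adjusted p from 0.056 to 0.069), and it turned to -0.11 (adjusted p = 0.28) under quantile normalization.

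ANO1 lies in a stretch of chromosome 11 that is often amplified in breast cancer together with CCND1. Of 7 tested genes listed from that stretch, 2 were higher, 2 lower and 3 not called, with a median of -0.02. The 57.1% called stood beside 77.3% of all genes tested (44.4% higher and 32.9% lower). CCND1, a cyclin of the cell cycle, had 237 FPKM in MDA-MB-231-BR and 183 FPKM in MDA-MB-231 (0.38), and SHANK2, a scaffold protein, had 3.55 and 0.123 FPKM (4.03). CTTN, an actin-binding protein, fell from 68.8 to 55.2 FPKM (-0.32), and MYEOV fell from 93.2 to 39.8 FPKM (-1.22). FADD (0.06, adjusted p = 0.16), LTO1 (-0.09, adjusted p = 0.064) and PPFIA1 (-0.02, adjusted p = 0.63) did not pass. LTO1 passed as lower under median-of-ratios scaling (-0.17, adjusted p = 0.0033), quantile normalization (-0.19, adjusted p = 0.0021) and the replicate block (adjusted p = 0.049), and also without MDA-MB-231-BR replicate 3 (adjusted p = 0.043) or MDA-MB-231 replicate 1 (adjusted p = 0.047). PPFIA1 passed as lower under median-of-ratios scaling (-0.10, adjusted p = 0.015) and quantile normalization (-0.08, adjusted p = 0.037), and FADD turned to -0.02 under median-of-ratios scaling. FGF19 was at most 0.02 FPKM and was not tested. ANO1 itself was at most 0.08 FPKM in any library.

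Of 11124 genes with a mean of at least 1 FPKM, the 3 whose centred log2 values over the 6 libraries lay closest to those of ANO8 were ZNF428, PHLDA3 and KCNK1. Their root mean square distances were 0.0458, 0.0498 and 0.0537 on the log2 scale. ZNF428, on chromosome 19 but not among the 40 neighbours of ANO8, had 13.7 FPKM in MDA-MB-231-BR and 5.24 FPKM in MDA-MB-231. PHLDA3 had 2.11 and 0.833 FPKM, and KCNK1, a potassium channel, had 5.88 and 2.28 FPKM. PHLDA3 and KCNK1 are on chromosome 1. The likeness is a description over 6 libraries.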
